A study of Mus musculus with 12 samples.

Results

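The genes Fabp7, Slc1a3, Nes, Vim, Prom1, Ptn, Ncan, Msi1, Sox1 and Sox3 are markers of radial glia and neural stem cells, and they are described here in mouse embryonic stem cells (ESC) and in neural progenitor cells (NPC) made from them. The members were chosen by gene symbol, and all 10 were found among the 18784 named genes of the array, each with 1 probe set. The cells carried either an shRNA against Jarid1b or a scrambled shRNA, in both states, so that there were 4 groups: knockdown NPC, control NPC, knockdown ESC and control ESC, with 3 arrays in each. All groups derive from the feeder-independent line E14TG2a.4, grown with LIF, exposed to lentivirus of the PLKO.1 type for 16 h and put under puromycin from 48 h after transduction, and the scrambled cells went through the same steps. The labels name a single Jarid1b construct, and they leave unsaid whether the 3 arrays of a group stand for independent transductions or for repeats of 1 culture. The p-values below therefore describe array-to-array spread, part of which could be technical.

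Radial glia are the progenitors of the developing nervous system. They span the neural tube wall, divide at its inner surface and give rise to neurons and later to glia. The markers cover several roles. Sox1 and Sox3 are SoxB1 transcription factors of the neural plate and of dividing progenitors, and Msi1 (Musashi) is an RNA-binding protein of neural stem cells. Nes (nestin) and Vim (vimentin) encode intermediate filament proteins. Fabp7 (brain lipid-binding protein) binds fatty acids, and Slc1a3 (GLAST) takes up glutamate. Prom1 (prominin, CD133) is a membrane protein of apical protrusions, Ptn (pleiotrophin) a secreted growth factor and Ncan (neurocan) a proteoglycan of the extracellular matrix. Vim is also made by mesenchymal and endothelial cells, and Prom1 by several epithelia.

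All 10 markers were higher in every NPC array than in every ESC array of the same construct, and they were so with and without the knockdown. Most of them were not called under Jarid1b shRNA in either state. In ESC 5 of the 10 had an unadjusted p under 0.05 in limma, where 19.2% of all genes had. In NPC 2 had, where 9.52% of all genes had. In NPC, Ptn fell, a call that was lost without any of 8 of the 12 arrays. In ESC, Slc1a3 fell, a call kept without each array, and Msi1 rose, a call lost without any of 5 arrays. No member's knockdown effect was shown to differ between the states.

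The windows upstream of Fabp7, Slc1a3 and Ptn are printed because Fabp7 had the largest difference between the states of the 10 genes, Slc1a3 was called lower under knockdown in ESC, and Ptn was called lower in NPC. RefSeq's promoter table (GRCm38.p6) held windows for 8 of the 10 genes, 9 windows in all, and not for Msi1 and Sox3. Each printed sequence runs 5′ to 3′ on the gene's strand over the 250 bases before the annotated start. Fabp7 is at chr10:57784673-57784922 (plus strand), Slc1a3 at chr15:8710808-8711057 (minus strand) and Ptn at chr6:36810180-36810429 (minus strand). Capitals mark matches to 6 motifs searched on both strands.
Fabp7: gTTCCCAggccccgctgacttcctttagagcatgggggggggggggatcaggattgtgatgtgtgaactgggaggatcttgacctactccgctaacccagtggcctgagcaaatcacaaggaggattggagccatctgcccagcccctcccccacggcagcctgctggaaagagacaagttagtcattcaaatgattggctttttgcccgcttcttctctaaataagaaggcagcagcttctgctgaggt
Slc1a3: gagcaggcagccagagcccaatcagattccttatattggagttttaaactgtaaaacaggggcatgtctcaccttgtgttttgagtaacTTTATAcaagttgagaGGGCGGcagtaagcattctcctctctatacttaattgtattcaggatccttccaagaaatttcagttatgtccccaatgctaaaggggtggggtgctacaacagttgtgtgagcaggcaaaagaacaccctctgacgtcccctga
Ptn: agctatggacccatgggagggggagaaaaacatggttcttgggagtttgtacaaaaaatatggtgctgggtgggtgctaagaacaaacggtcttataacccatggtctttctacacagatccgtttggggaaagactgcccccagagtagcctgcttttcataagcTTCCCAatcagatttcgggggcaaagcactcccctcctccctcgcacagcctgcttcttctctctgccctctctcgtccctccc

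A pair of motifs was taken for the SOX factors, ACAAAG as the first variant and then ACAATG as the second variant. RBPJ, the DNA-binding partner of Notch, was represented by TGGGAA. The octamer of POU factors was searched as ATGCAAAT, the TATA box as TATAAA and the box of SP factors as GGGCGG. No 2 matches overlapped in the printed windows. TGGGAA was found once in the windows of Fabp7, Ptn, Ncan and Prom1, and 21.6% of all 32851 windows of that length hold it. TATAAA was found in the windows of Slc1a3, Vim and Ncan, against 12.4% of all windows; that of Vim lay 32 to 27 bases before the start. GGGCGG was found in those of Slc1a3, Nes, Prom1, Ncan and Sox1, against 32.7%. No window of a member held either SOX motif, found in 16.5% (first variant) and 10.7% (second variant) of all windows, or the POU octamer, found in 1.6%. These are letter matches and not measured sites. The windows differed in base composition: Sox1 had 29 CpG and Nes 15, against 4 for Fabp7, 5 for Ptn and 2 for Slc1a3, with a median of 6 over all windows.

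Kdm5b, the current symbol of Jarid1b, was measured first as a check of the labels. Its log2 level was 10.38, 10.48 and 10.54 in knockdown NPC, against 11.24, 11.15 and 11.30 in control NPC. It was 10.64, 10.90 and 10.50 in knockdown ESC, against 12.25, 12.47 and 12.50 in control ESC. The knockdown arrays lay below the control arrays in both states, with a wider gap in ESC than in NPC. The part of this gap in the knockdown effects compared below was not tested. The cell states were checked in the same way. All 18 pluripotent cell markers fell in NPC against ESC with either construct. Among them, Esrrb fell by 5.05 ± 0.11 in knockdown and 5.48 ± 0.11 in control cells (SE). Over all 18784 genes, 4469 rose and 4695 fell in knockdown cells, and 4406 rose and 4716 fell in control cells. Of 18 neuronal markers, 16 rose and 1 fell in NPC against ESC in knockdown cells, and 15 rose and 1 fell in control cells. Their part in the NPC values of the members was not tested. In bulk RNA, fewer cells of a type and less RNA per cell cannot be told apart.

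To ask how the markers differ between the states, NPC were compared with ESC within each construct, and levels are log2 values of RMA, which the submitters' notes name. All 10 rose in knockdown cells, where 23.8% of all genes rose by the same test, and all 10 rose in control cells, where 23.5% did. The groups did not overlap for any of the 10. Genes higher without overlap made up 28.5% of all genes in knockdown cells and 24.5% in control cells. The median of the members was 1.84 in knockdown and 1.56 in control cells, against -0.07 and -0.04 over all genes. The markers are known as genes of neural progenitors, so their direction is that of their definition, and the sizes are given below by role.

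**Figure D1:**
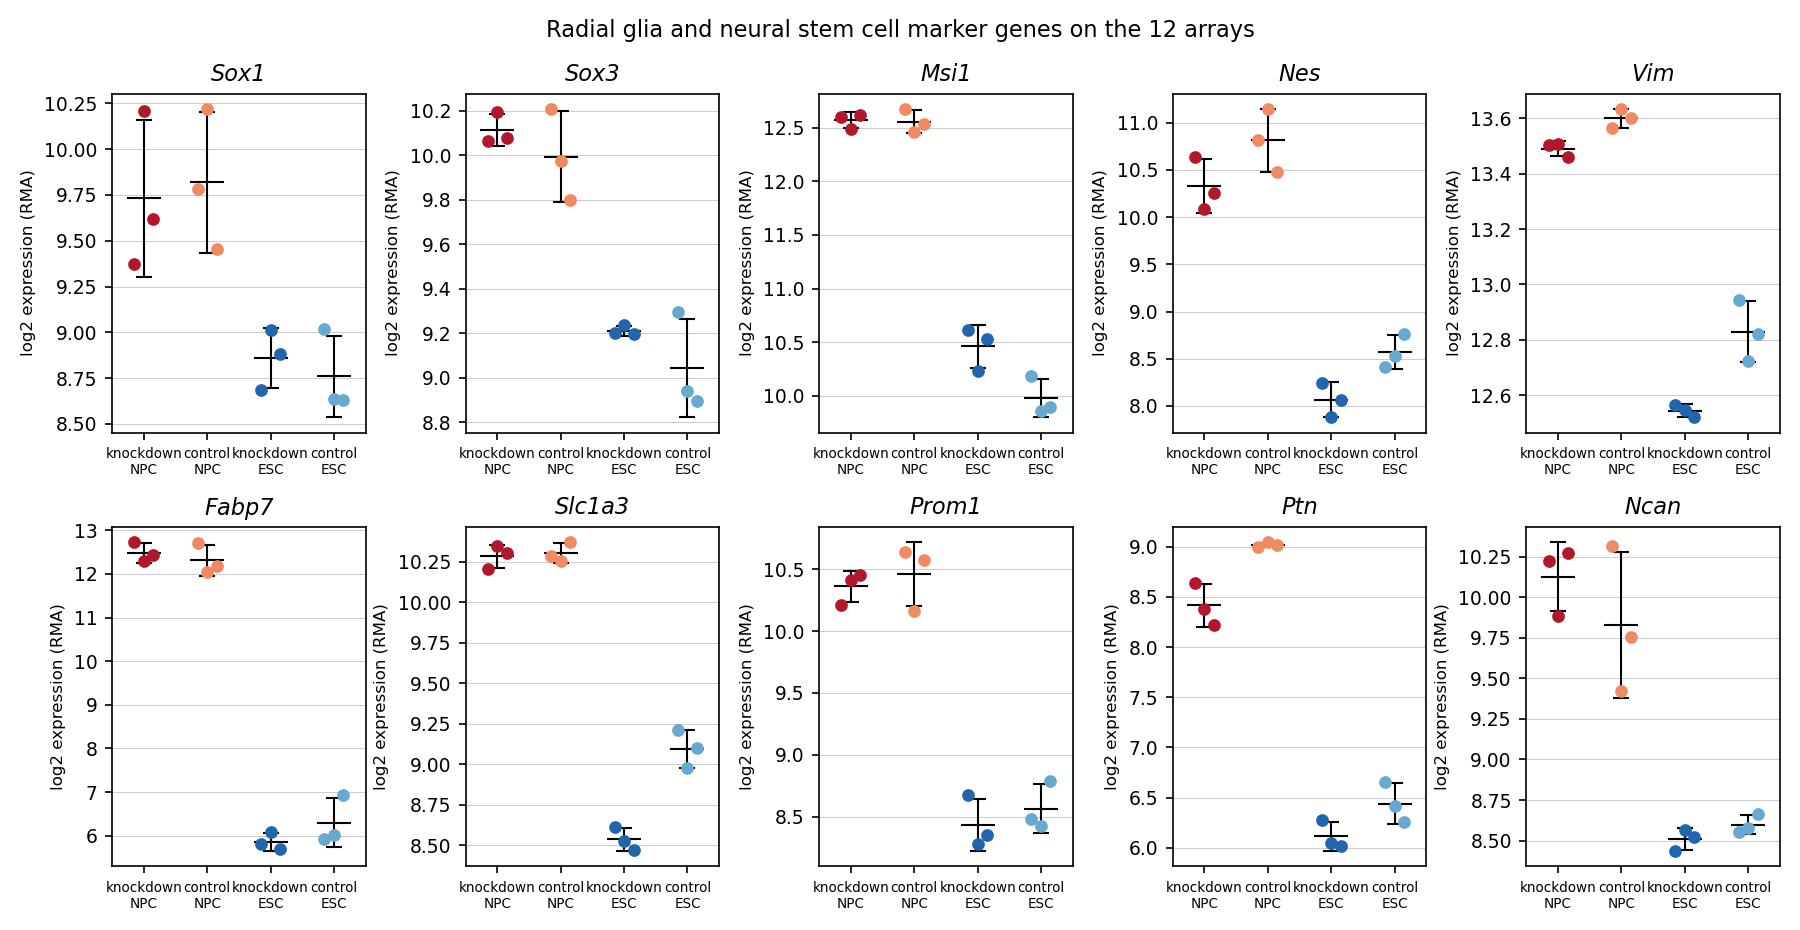
Log2 expression (RMA, y axis) of the 10 marker genes on each of the 12 arrays, in knockdown NPC, control NPC, knockdown ESC and control ESC (x axis); points are arrays, horizontal marks the group mean and bars the SD of 3 arrays. Each panel has its own y range. NPC arrays lie above ESC arrays in every panel, and for Slc1a3 the knockdown ESC arrays (8.47 to 8.61) lie below the control ESC arrays (8.98 to 9.21).

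Among the transcription factors, Sox1 lay at 9.37, 10.21 and 9.62 in knockdown NPC and at 8.69, 9.01 and 8.88 in knockdown ESC. In control cells it lay at 9.78, 10.22 and 9.46 in NPC and at 9.02, 8.63 and 8.63 in ESC. The states came closest for this gene, with a gap of 0.36 in knockdown and 0.44 in control cells between the lowest NPC and the highest ESC array. Its rises of 0.87 ± 0.22 (SE, limma adjusted p = 0.00436) in knockdown and 1.06 ± 0.22 (SE, limma adjusted p = 0.00103) in control cells rest on NPC groups with an SD of 0.43 and 0.38. Sox3 ranged from 10.06 to 10.20 in knockdown NPC, against 9.20 to 9.24 in knockdown ESC, and from 9.80 to 10.21 in control NPC, against 8.89 to 9.30 in control ESC. It rose by 0.90 ± 0.12 in knockdown and 0.95 ± 0.12 in control cells (SE). Sox2, the third SoxB1 factor, is used by pluripotent cells as well as by neural progenitors. It moved the other way and fell by 1.01 ± 0.10 in knockdown and by 0.83 ± 0.10 in control cells (SE).

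Msi1 had log2 levels of 12.60, 12.49 and 12.62 in knockdown NPC, against 10.62, 10.23 and 10.53 in knockdown ESC. It had 12.68, 12.46 and 12.53 in control NPC, against 10.18, 9.86 and 9.89 in control ESC. The NPC values of both constructs fell in 1 narrow range, while the knockdown ESC arrays were above all control ESC arrays. The rise was 2.11 ± 0.12 (SE, 4.31-fold, limma adjusted p = 8.60e-09) in knockdown and 2.58 ± 0.12 (SE, 5.97-fold, limma adjusted p = 1.30e-09) in control cells. Its close relative Msi2 rose by 0.68 ± 0.10 in knockdown and 0.71 ± 0.10 in control cells (SE).

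Of the filament genes, Nes lay at 10.64, 10.08 and 10.26 in knockdown NPC, against 8.25, 7.88 and 8.07 in knockdown ESC. It lay at 10.82, 11.14 and 10.48 in control NPC, against 8.41, 8.53 and 8.77 in control ESC. The rise was 2.26 ± 0.18 in knockdown and 2.24 ± 0.18 in control cells (SE), or 4.80-fold and 4.73-fold. Vim lay at 13.50, 13.51 and 13.46 in knockdown NPC, against 12.57, 12.55 and 12.52 in knockdown ESC. It lay at 13.57, 13.63 and 13.60 in control NPC, against 12.94, 12.72 and 12.82 in control ESC. Vim was already high in ESC, where every array was above the upper quartiles of the arrays (9.52 to 9.66). The highest value on any array was 14.26, and the part of this high level in the size of Vim's rise was not tested. Vim rose by 0.95 ± 0.08 in knockdown and 0.77 ± 0.08 in control cells (SE).

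Fabp7 had log2 levels of 12.72, 12.29 and 12.43 in knockdown NPC, against 5.81, 6.09 and 5.69 in knockdown ESC. It had 12.72, 12.04 and 12.18 in control NPC, against 5.94, 6.01 and 6.94 in control ESC. In ESC it lay near the lower quartiles of the arrays (5.84 to 6.11), apart from control replicate 3. The difference was 6.62 ± 0.25 (SE, 98.1-fold, limma adjusted p = 2.40e-10) in knockdown and 6.02 ± 0.25 (SE, 64.8-fold, limma adjusted p = 5.21e-10) in control cells. The values come with no detection calls and the ESC level is close to these lower quartiles, so the differences and folds are rough. Its relative Fabp5 rose by 1.81 ± 0.16 in knockdown and 1.47 ± 0.16 in control cells (SE). Fabp5 lay at 4.73 to 5.14 in ESC, below the arrays' lower quartiles, so these differences are rough as well. Fabp3, the heart form, changed by -2.87 ± 0.35 and -3.05 ± 0.35 (SE).

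Slc1a3 had log2 levels of 10.21, 10.35 and 10.30 in knockdown NPC, against 8.61, 8.53 and 8.47 in knockdown ESC. It had 10.29, 10.26 and 10.37 in control NPC, against 9.21, 8.98 and 9.10 in control ESC. The rise was 1.75 ± 0.09 (SE, 3.36-fold, limma adjusted p = 3.08e-09) in knockdown and 1.21 ± 0.09 (SE, 2.31-fold, limma adjusted p = 8.31e-08) in control cells. Slc1a2, the other main glial glutamate transporter, rose by 2.33 ± 0.13 and 2.40 ± 0.13 (SE). Prom1 ranged from 10.21 to 10.46 in knockdown NPC, against 8.28 to 8.67 in knockdown ESC, and from 10.16 to 10.64 in control NPC, against 8.43 to 8.79 in control ESC. Its rises of 1.93 ± 0.15 and 1.89 ± 0.15 (SE) differed by 0.03 ± 0.21 (SE).

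Of the secreted and matrix proteins, Ptn lay at 8.64, 8.38 and 8.22 in knockdown NPC, against 6.28, 6.05 and 6.02 in knockdown ESC. It lay at 8.99, 9.04 and 9.02 in control NPC, against 6.66, 6.41 and 6.25 in control ESC. The knockdown NPC arrays (SD 0.21) were all below the tightly grouped control NPC arrays (SD 0.02). Ptn rose by 2.30 ± 0.13 (SE, 4.93-fold) in knockdown and 2.58 ± 0.13 (SE, 5.97-fold) in control cells. In ESC Ptn lay near the arrays' lower quartiles (5.84 to 6.11), so its folds are rough, as for Fabp7. The Ptn receptor gene Ptprz1 rose by 1.70 ± 0.27 and 1.84 ± 0.27 (SE), with rough differences too, since it lay at 5.38 to 6.70 in ESC. The Ptn receptor gene Sdc3 rose by 1.82 ± 0.10 and 2.20 ± 0.10, and the Ptn relative Mdk by 1.43 ± 0.11 and 1.48 ± 0.11 (SE). Ncan ranged from 9.89 to 10.27 in knockdown NPC, against 8.44 to 8.57 in knockdown ESC, and from 9.42 to 10.31 in control NPC, against 8.55 to 8.67 in control ESC. It rose by 1.62 ± 0.18 and 1.23 ± 0.18 (SE). Bcan, a proteoglycan of the same family, changed by 0.02 ± 0.19 and 0.03 ± 0.19 (SE, limma adjusted p = 0.931 and 0.924) and was not called.

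**Figure D2:**
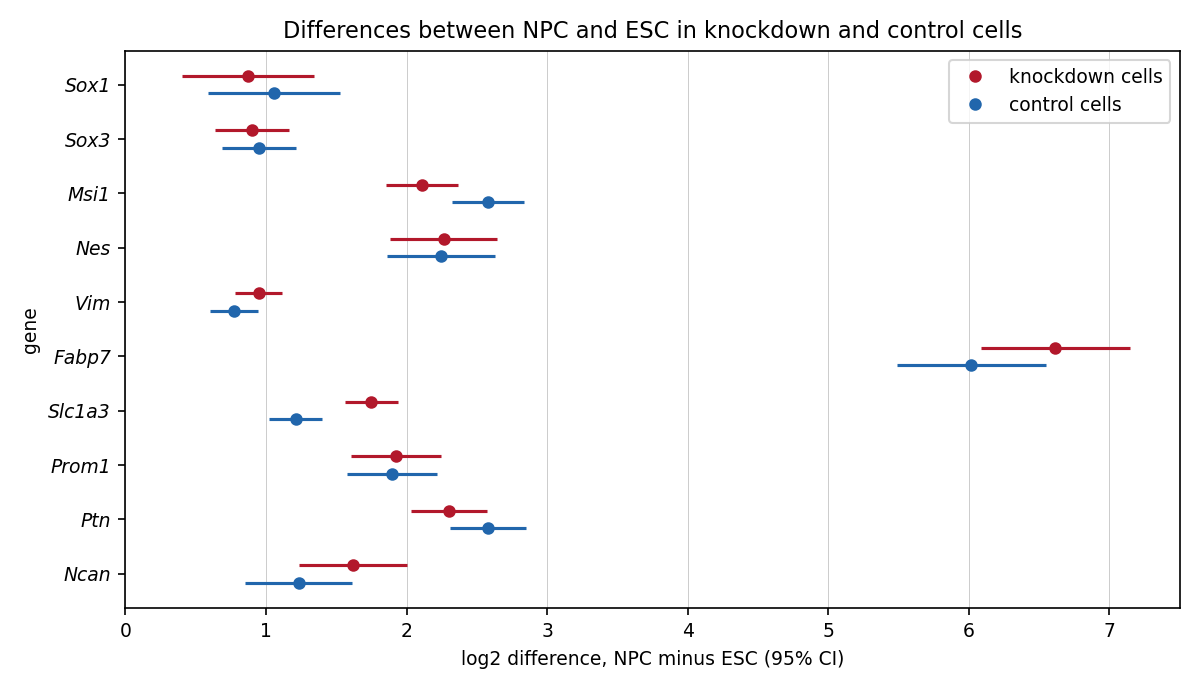
Log2 difference between NPC and ESC (x axis, point with 95% confidence interval from limma) for each marker gene (y axis), in knockdown cells (red, upper) and control cells (blue, lower), 3 arrays in each group. Fabp7 stands apart at 6.62 and 6.02, the other 9 genes lie between 0.77 and 2.58, and the intervals of the 2 constructs overlap for every gene except Slc1a3.

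The test of whether these steps differ between the constructs is the same as that of whether the knockdown effects differ between the states. Of the 10 members, 0 passed it, where 1.42% of all genes did, and 2 had an unadjusted p under 0.05, where 15.3% of all genes had. These were Slc1a3, with a difference of 0.54 ± 0.12 (SE, limma adjusted p = 0.0517), and Msi1, with -0.47 ± 0.17 (SE, limma adjusted p = 0.195). For Slc1a3 the adjusted p lay just above 0.05, and it was 0.0151 with array weights and 0.0357 with a filter on low values. Msi1 passed with array weights, at -0.56 (limma adjusted p = 0.0485). The 95% intervals of the differences were wide for other members. For Fabp7 the difference was 0.60, with an interval from -0.15 to 1.35, and without control ESC replicate 3 it was 0.28. For Prom1 it was 0.03, with an interval from -0.42 to 0.48.

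In NPC the question was whether the knockdown changes the markers once the neural state is reached. Ptn fell and was the only member called, where 0.213% of all genes fell and 1.03% changed either way. Without control NPC replicate 1 the number of genes that fell was 108, against 40 with all arrays. Ptn changed by -0.60 ± 0.13 (SE, 1.52-fold lower, limma adjusted p = 0.0410). The call was lost without any of 8 arrays, namely knockdown NPC replicates 2 and 3, control NPC replicates 1, 2 and 3, knockdown ESC replicates 2 and 3 and control ESC replicate 2, with adjusted p of 0.0599 to 0.142. From the 6 NPC arrays alone the adjusted p was 0.0990. Vim arrays did not overlap either, all knockdown values being lower, but the change of -0.11 ± 0.08 (SE) did not pass the test (limma adjusted p = 0.805). Genes lower without overlap were 5.91% of all genes.

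The other 8 members were not called in NPC. Nes changed by -0.48 ± 0.18 (SE, limma adjusted p = 0.330), with knockdown values of 10.08 to 10.64 overlapping control values of 10.48 to 11.14. The remaining 7 changed by -0.10 (Prom1) to 0.30 (Ncan), with adjusted p of 0.712 to 0.991. The value of Ncan was 0.54 without control NPC replicate 1 and 0.093 without control NPC replicate 2. The 95% intervals were from -0.21 to 0.17 for Slc1a3, from -0.24 to 0.27 for Msi1 and from -0.36 to 0.70 for Fabp7. Over the 10 genes the median was -0.05, against 0.00 over all genes.

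Markers of other cell types differed between the NPC groups. Of 18 pluripotent cell markers 6 rose and 0 fell in knockdown NPC, where 0.82% of all genes rose, and their mean level was 7.58 to 8.24 on the knockdown arrays, against 6.89 to 7.34 on the control arrays. They were Klf2, Dppa2, Utf1, Dppa5a, Esrrb and Tdgf1, which rose by 0.64 (Esrrb) to 2.43 (Dppa5a). Of 9 endothelial markers 0 rose and 4 fell, namely Cd93, Emcn, Cdh5 and Cldn5, and their mean level was 6.29 to 6.68 against 7.16 to 7.99. Of 12 mesenchymal markers 0 passed limma's test, though 8 had an unadjusted p under 0.05, against 9.52% of all genes. The mean level of the mesenchymal markers was 7.51 to 7.70 against 7.90 to 8.23. Their part in the lower values of Ptn, Nes and Vim was not tested. Of 34 other neural progenitor genes, 0 rose and 0 fell in knockdown NPC (5 had an unadjusted p under 0.05 in limma), and their mean level overlapped, at 9.77 to 9.85 in knockdown and 9.71 to 9.86 in control NPC. The neuronal list had 0 called of 18 (2 at an unadjusted p under 0.05). Its mean level was lower without overlap, at 9.78 to 9.85 in knockdown and 9.88 to 10.004 in control NPC.

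**Figure D3:**
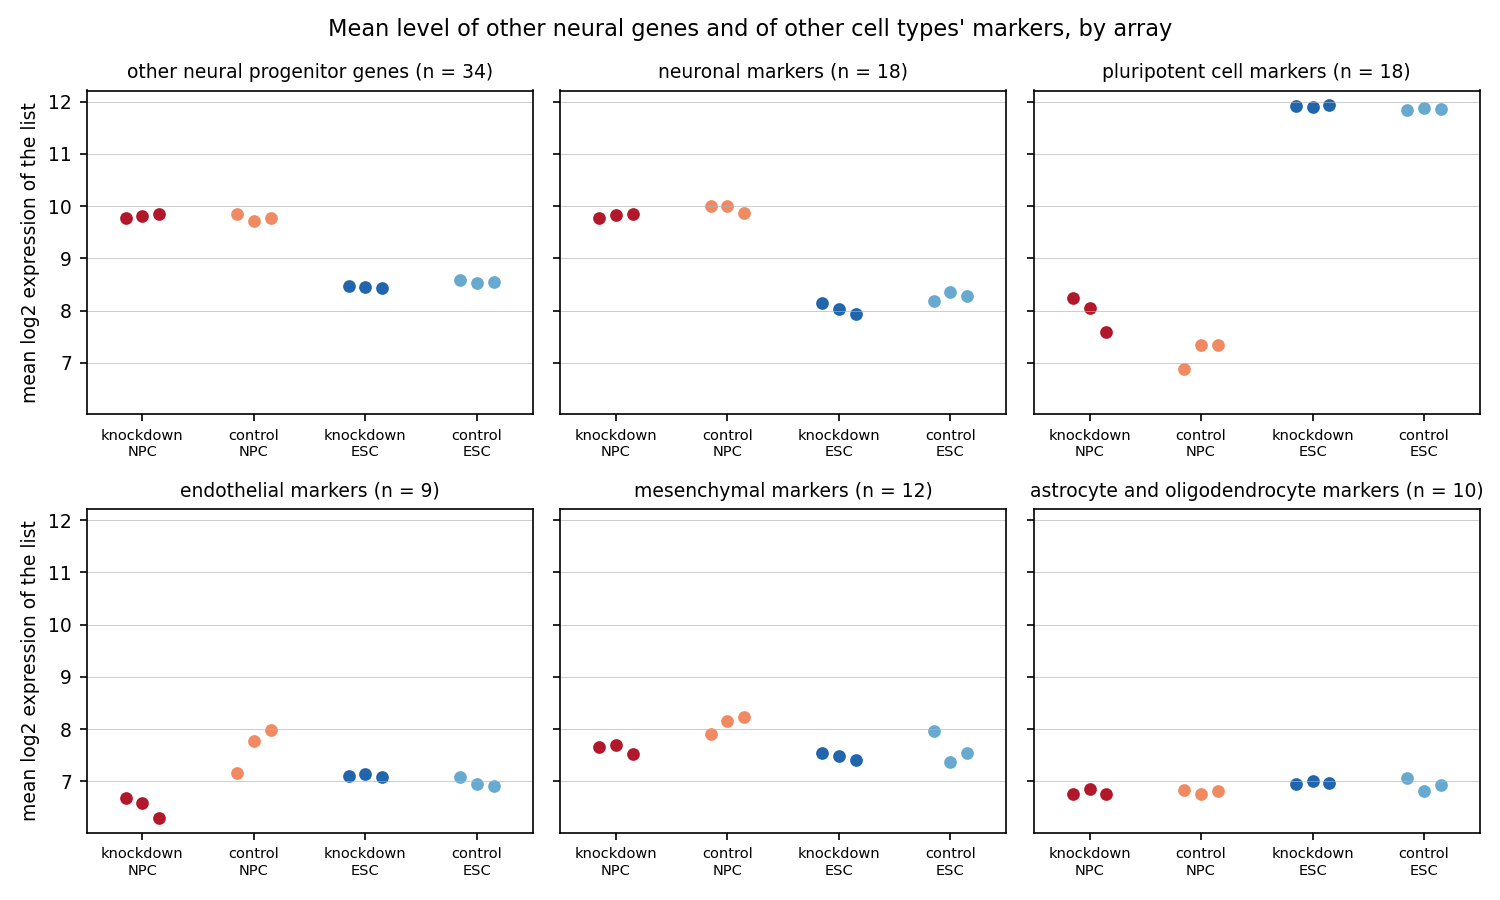
Mean log2 expression (y axis) over the measured genes of 6 lists, on each of the 12 arrays (points), in knockdown NPC, control NPC, knockdown ESC and control ESC (x axis). In NPC the pluripotent cell markers lie higher (7.58 to 8.24 against 6.89 to 7.34) and the endothelial markers lower (6.29 to 6.68 against 7.16 to 7.99) in knockdown than in control arrays, while the neural progenitor genes overlap. The mesenchymal markers (7.51 to 7.70 against 7.90 to 8.23) and the neuronal markers (9.78 to 9.85 against 9.88 to 10.004) also lie lower in knockdown NPC.

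In ESC the question was whether the knockdown changes the markers before differentiation. Slc1a3 fell and Msi1 rose, so that 2 of 10 were called, where 5.21% of all genes were (3.37% lower and 1.84% higher). Slc1a3 changed by -0.56 ± 0.09 (SE, 1.47-fold lower, limma adjusted p = 0.00488). It was called with each array left out in turn (adjusted p of 0.00580 to 0.0331) and under each of the 10 other alternatives run (0.000803 to 0.0408). Msi1 changed by 0.48 ± 0.12 (SE, 1.40-fold higher, limma adjusted p = 0.0338). Leaving out knockdown ESC replicate 1 or 3, control ESC replicate 2 or 3, or knockdown NPC replicate 3 ended the call, with adjusted p of 0.0517 to 0.160, and from the 6 ESC arrays alone it was 0.0883.

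The other 8 members were not called in ESC, and 6 of them had negative values. Vim arrays did not overlap, at 12.52 to 12.57 in knockdown and 12.72 to 12.94 in control ESC, and Vim changed by -0.29 ± 0.08 (SE, limma adjusted p = 0.0548). It passed with an intensity trend and a robust prior (adjusted p = 0.00837), with array weights (0.0183), with a filter on low values (0.0371) and without control NPC replicate 2 (0.0455). Nes arrays did not overlap either, at 7.88 to 8.25 in knockdown and 8.41 to 8.77 in control ESC, with a change of -0.50 ± 0.18 (SE, limma adjusted p = 0.128). Nes passed with array weights, at -0.60 (limma adjusted p = 0.0175). Genes lower without overlap were 13.6% of all genes in ESC, and 3 members were among them, while 1 member was higher without overlap, against 10.6%.

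Ptn changed by -0.33 ± 0.13 in ESC (SE, limma adjusted p = 0.164) and lay at 6.02 to 6.28 in knockdown and 6.25 to 6.66 in control arrays, so the groups overlapped. These levels are near the arrays' lower quartiles (5.84 to 6.11). Fabp7 changed by -0.43 ± 0.25 (SE, limma adjusted p = 0.373). Its mean was 5.86 ± 0.21 in knockdown ESC and 6.30 ± 0.56 in control ESC (SD, n = 3 each), where replicate 3 stood at 6.94. Without that array the change was -0.11. Prom1, Ncan, Sox1 and Sox3 changed by -0.13 to 0.17, with adjusted p of 0.499 to 0.853. The median of the 10 genes was -0.21, against 0.02 over all genes.

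**Figure D4:**
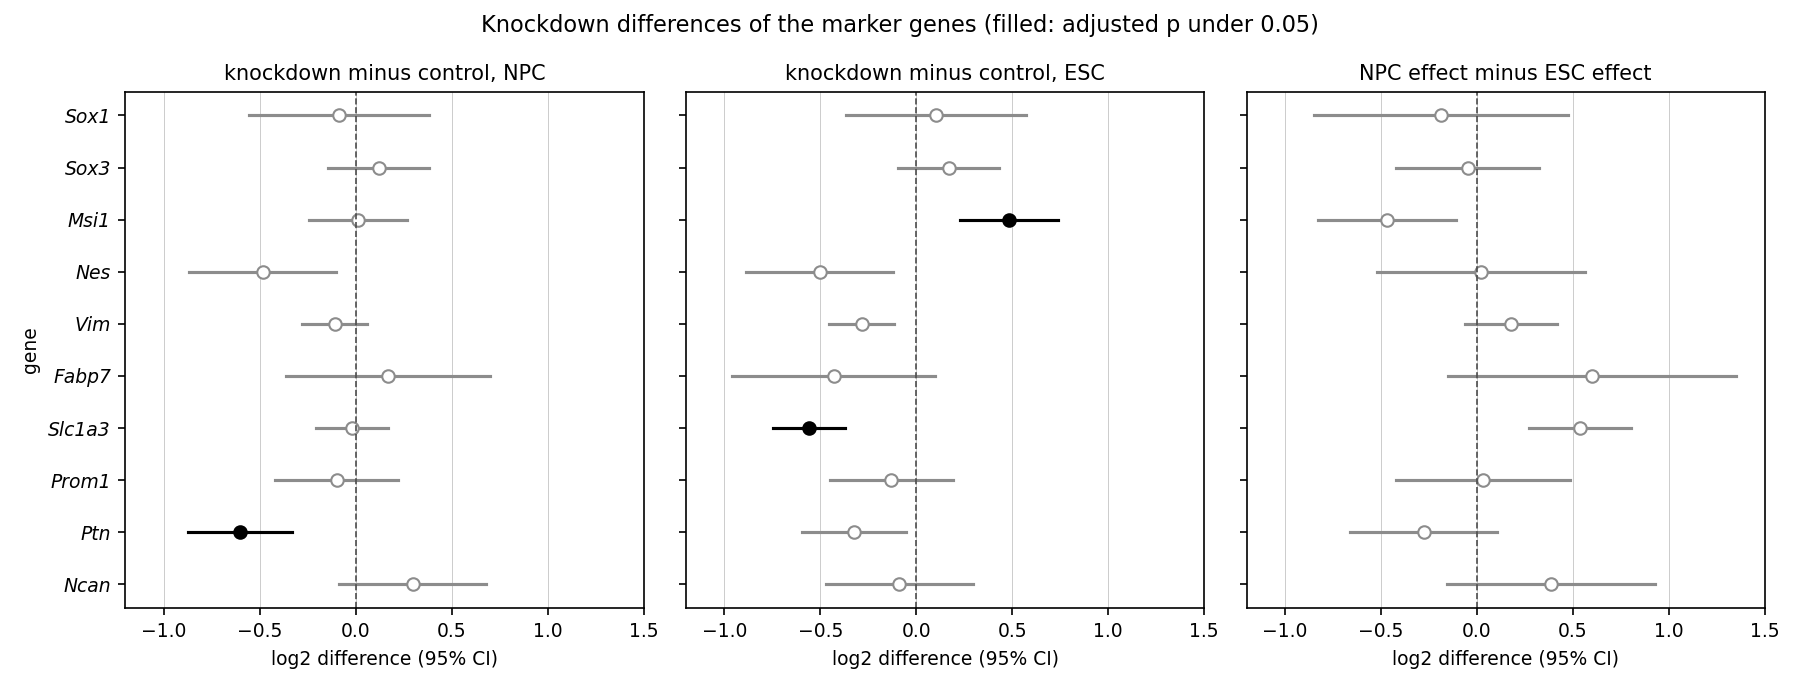
Log2 difference between knockdown and control (x axis, point with 95% confidence interval from limma, 3 arrays against 3) for the 10 marker genes (y axis) in NPC and in ESC, and the NPC effect minus the ESC effect. Filled black points passed an adjusted p under 0.05: Ptn in NPC (-0.60), and Slc1a3 (-0.56) and Msi1 (0.48) in ESC; none passed in the third panel.

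Other neural genes in ESC were measured beside the markers. Of 34 other neural progenitor genes 1 rose and 4 fell in knockdown ESC, where 1.84% of all genes rose and 3.37% fell. Their mean level was 8.44 to 8.47 in knockdown and 8.53 to 8.58 in control ESC. The adhesion gene Ncam1 rose by 0.76 ± 0.13, while Cdh2, which encodes N-cadherin, changed by -0.99 ± 0.11, Pax6, a transcription factor of radial glia, by -0.91 ± 0.20, the Notch ligand gene Dll1 by -0.75 ± 0.19, and the membrane protein gene Gpm6a by -0.75 ± 0.19 (SE). Of 18 neuronal markers 0 rose and 5 fell, namely Neurod1, Nefl, Crmp1, Map2 and Tubb3, and their mean level was 7.93 to 8.14 in knockdown and 8.19 to 8.35 in control ESC. Their part in the lower values of Slc1a3, Nes and Vim was not tested. Of 12 mesenchymal markers 1 fell, the actin-binding gene Tagln, with overlapping mean levels of 7.41 to 7.55 in knockdown and 7.38 to 7.96 in control ESC. Of 9 endothelial markers 1 rose, the adhesion gene Pecam1, by 0.86 ± 0.18 (SE), and 0 fell. Pecam1 was higher in ESC, at 9.29 to 10.40 over both constructs, than in NPC, at 5.96 to 7.24. Of the 18 pluripotent cell markers 0 were called in knockdown ESC, and 3 had an unadjusted p under 0.05 in limma, where 19.2% of all genes had. Their mean level was 11.90 to 11.93 in knockdown and 11.84 to 11.88 in control ESC. Of 22 relatives and partners of the members, Sox2, Msi2 and Slc1a2 among them, 0 were called in NPC and 0 in ESC, with 2 and 3 at an unadjusted p under 0.05. Of 10 astrocyte and oligodendrocyte markers 0 were called in NPC and 0 in ESC as well, with 4 and 1 at an unadjusted p under 0.05. In the comparison of the states 3 of those 10 markers were higher and 3 lower with either construct. Of the 22 relatives and partners, 8 rose and 7 fell in NPC against ESC in knockdown cells. In control cells 10 rose and 6 fell. Over all genes 23.8% rose in knockdown and 23.5% in control cells, and 4695 and 4716 of 18784 fell. Acan, a proteoglycan of the same family as Ncan, changed by -0.82 ± 0.14 and -0.91 ± 0.14, and the filament genes Des and Synm by -0.73 ± 0.26 and -0.50 ± 0.09 in knockdown and -1.17 ± 0.26 and -0.67 ± 0.09 in control cells (SE). The Ptn receptor gene Alk was not called, at -0.23 ± 0.14 in knockdown and 0.14 ± 0.14 in control cells (SE).

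Of the 34 other neural progenitor genes, 21 rose and 3 fell in NPC against ESC in knockdown cells, where 23.8% of all genes rose. In control cells 22 rose and 6 fell, where 23.5% of all genes rose. Rfx4, a transcription factor of neural progenitors, rose by 4.26 ± 0.10 and 4.34 ± 0.10, the progenitor factor Sox9 by 3.51 ± 0.10 and 3.77 ± 0.10, and Zic1, a zinc finger factor of the dorsal neural tube, by 4.77 ± 0.14 and 4.74 ± 0.14 (SE). Otx2, of the same list, went the other way. It lay at 6.37 to 7.11 in knockdown NPC, against 10.68 to 11.10 in knockdown ESC. In control cells it lay at 6.01 to 6.59 in NPC, against 11.05 to 11.21 in ESC. The median difference of the 34 genes was 1.22 in knockdown and 1.25 in control cells.

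Across the 12 arrays the 45 pairs of members correlated at 0.76 (Ncan with Sox1) to 0.99 (Slc1a3 with Vim), with a median of 0.94; all pairs share the same arrays and the split between the states. As deviations from the group means, the same pairs correlated at -0.49 (Ncan with Sox1) to 0.69 (Slc1a3 with Vim), with a median of 0.10. The genes most like each member over the 12 arrays, by Pearson's r, were Tmx4 for Fabp7 (0.997), Ppp2cb for Slc1a3 (0.997), Grip1 for Nes (0.988), Zyx for Vim (0.995) and Cdk8 for Prom1 (0.995). They were Rdh10 for Ptn (0.994), Astn1 for Ncan (0.991), Dpysl4 for Msi1 (0.997), Tnfrsf21 for Sox1 (0.962) and Lhfpl4 for Sox3 (0.989). Such values are common here, since 1590 genes had an r above 0.95 with Fabp7, while 10 had with Sox1.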

How the data were processed

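RNA was measured on 12 Affymetrix MoGene arrays, 3 in each of 4 groups taken from the sample titles. Per array and probe set, 1 log2 value was deposited; the authors used affy, RMA and limma per the submitters' processing notes, versions not being stated in these sources. RMA subtracts background, equalizes the arrays' quantiles and merges the probes of a set. Array differences at both ends of the range can come out too small, which was not tested here. Array medians lay at 7.70 to 7.79, and arrays of a group correlated at 0.992 to 0.997. No detection calls come with the values, and precision is limited by having 3 arrays a group. For the array annotation no genome build is named in the labels or notes.

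GEO's platform annotation gives 1 symbol for 18786 of 21212 probe sets and several for 6, and it does not list 2420. Of the first, 18775 matched RefSeq's table (GRCm38.p6) by Entrez ID. The highest-mean probe set was kept per gene. With limma 3.58.1 under R 4.3.3, 1 mean per group was fitted over the 12 arrays (8 residual degrees of freedom), with Benjamini-Hochberg adjustment over 18784 genes and two-sided tests. Rose and fell mean an adjusted p under 0.05, and SE is limma's. The steps were tested on simulated data. The members and the 7 gene lists (114 of 117 genes measured; the other genes are not reported here) were chosen with earlier results of these data known. Named genes are the members, Kdm5b, the gene most like each member, genes of each list with the smallest p, and any called in a knockdown contrast where 6 or fewer were; relatives of a member were named beside it after their values were seen.

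After subtraction of group means, control NPC and control ESC arrays of equal number correlated over genes at 0.266, 0.286 and 0.334. The values reported for this contrast come from the fit without pairs. A replicate block by the titles' numbers was run only as an alternative. The other contrasts had at least 1 pair below 0.1. Alternatives were a replicate block, the 6 arrays of a contrast, array weights, a low-value filter, a robust prior with an intensity trend, quantile normalization, median centring, adjustment over all rows, averaging a gene's probe sets (with only named probe sets fitted) and leaving out each array.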

Additional observations from a re-analysis of the deposited data

How the results depend on the processing

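All 10 markers were called higher in NPC than in ESC, with either construct, under all 10 other alternatives and with each array left out (10 to 10 calls). A replicate block, over all 12 arrays or the 6 of a contrast, also left all 10 called there. The values given above for control cells come from the fit without it. In knockdown ESC, where 2 members were called, 4 were with array weights, and 1 was, Slc1a3, from the 6 arrays alone or with a replicate block on them. Leaving out arrays gave 1 to 3. In knockdown NPC the 1 call, Ptn, became 0 from the 6 arrays alone and 0 with a replicate block on them, and leaving out arrays gave 0 to 1. A fit on 6 arrays has fewer residual degrees of freedom. Over all 12 arrays the replicate block kept 2 calls in ESC and 1 in NPC. For the difference of the effects, 0 calls became 2 with array weights (Slc1a3 and Msi1), 1 with the low-value filter and 1 with the mean of probe sets, and stayed 0 without any array. The cause of these moves was not tested.

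Values near 0 changed sign, never with a call. In NPC, Msi1 (0.01) became -0.0235 with array weights, -0.0152 with median centring and -0.0164 with quantile normalization, and Fabp7 (0.17) became -0.0117 with array weights. Leaving out arrays gave Msi1 -0.0345 to 0.0720, Slc1a3 -0.0502 to 0.0198 and Sox1 -0.32 to 0.11. For the difference of the effects, median centring and quantile normalization turned Nes (0.02) to -0.0203 and -0.0161, and Prom1 (0.03) to -0.0080 and -0.0070. Leaving out arrays gave Nes -0.15 to 0.18, Prom1 -0.12 to 0.15, Sox1 -0.43 to 0.0130 and Sox3 -0.18 to 0.0582.

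Counts over all genes moved more. In knockdown ESC 979 became 2887 with array weights, 500 from the 6 arrays, 396 with a replicate block on them and 193 to 1536 without single arrays. In knockdown NPC 194 became 29 from the 6 arrays, 57 with the block on them and 83 to 247 without single arrays. For the difference 267 became 955 with array weights, 152 with the block and 35 to 546 without single arrays; of the calls 82.8% were higher, against 71.1% with median centring, 71.4% with quantile normalization, 69.8% with array weights and 65% to 94.3% without single arrays. In knockdown NPC 79.4% of the calls were higher, against 50.9% without control NPC replicate 1.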
